A study of Sus scrofa with 6 samples.

Results

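The interleukin 1 (IL-1) family genes examined here encode ligands (IL1A, IL18 and IL33, with the antagonist IL1RN), receptor chains (IL1R1, IL1RAP and IL1RL1) and the proteins that carry the signal from the receptors into the cell (MYD88, IRAK1 and IRAK2). IL1A was taken by its identifier, ENSSSCG00000008090, and the other genes by their pig symbols. Of the 10 genes listed, 8 were found among the 25149 genes of the count files. IL1RN and IL1RL1 were not matched and were not analysed here. All 8 genes had at least 49 counts in every library and entered the test, which covered 17512 genes.

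The cells were neonatal pig Sertoli cells (NPSC), the somatic nurse cells of the seminiferous tubule, isolated from wild-type testes by digestion and filtration. Each library came from its own overnight monolayer in DMEM with fetal bovine serum. For baseline NPSC (3 libraries), part of the medium was then exchanged for fresh DMEM. For complement NPSC (3 libraries), the same part was exchanged for pooled human serum with its complement preserved, so that serum and medium stood 1:1, and both groups were collected after 90 min. No library held cells in human serum without active complement, so complement and the other components of human serum cannot be told apart as the source of a difference. The testes were pooled by litter, and neither the labels nor the methods say which litter gave which plate, so the p-values measure the spread between plates.

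IL-1 family ligands are early alarm signals of damaged or infected tissue. IL1A and IL33 lie ready in the cell and are released when it breaks, whereas IL18 is trimmed by caspase 1 before it leaves. Each ligand joins its own receptor to a shared or related accessory chain, the joined receptors gather MYD88 and the IRAK kinases, and the signal ends in NF-kB and MAP kinases and the transcription of chemokines, adhesion molecules and the signal's own inhibitors. In the testis, Sertoli cells are a known source of IL1A, which acts on the junctions between Sertoli cells and on germ cell development.

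In none of the 8 IL-1 family genes did the difference between complement and baseline NPSC pass the test, which asked in edgeR for a Benjamini-Hochberg adjusted p under 0.05 together with a log2 fold change (LFC) beyond 1 in size. IL1A, at 1.59-fold, and IRAK2, at 1.39-fold, were higher in every complement library than in any baseline library, as were 8.95% of all tested genes, and the values of the other 6 genes overlapped. Scaled by the library total alone, in place of the TMM-normalized library size, IL1A remained separate while IRAK2 overlapped and IL1R1 did not. A list of IL-1 response genes, 18 of them tested, was drawn up with earlier results of these data known. Of these, PTGS2 and CXCL2 rose past both thresholds in edgeR, where 0.103% of all tested genes did. DESeq2 called 7 of the list, against 0.358% of all genes to which it gave an adjusted p. The values of IL33 and IL1R1 depended on complement replicate 3. Without it IL33 had an LFC of -1.11 and was past both thresholds, as were 5.76% of all genes tested in that fit. IL1R1 had an LFC of -0.0086 there.

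The libraries held 6796183 to 8371923 counts in baseline NPSC and 3641518 to 6403606 in complement NPSC. Levels are given as CPM, counts scaled by the library size after TMM normalization, so that libraries of different depth can be compared. Olfactory receptor genes, best known from the nasal epithelium, took 1.30 to 2.12 CPM per kilobase in the baseline libraries. In complement replicates 1, 2 and 3 the same 48 genes took 3.51, 3.85 and 1.68. This density times a gene's exon length is called its expected background below. It is given beside the results as a share of the gene's counts, and what gave rise to it was not tested. For some genes it came to more than all of their counts (320.3% for the receptor gene IL1RAPL2). The density is too high for such genes, so the shares and the subtracted values are rough. Of 10 Sertoli cell markers, 9 were matched and all 9 were tested, with a summed level of 5016 to 7738 CPM in baseline and 3299 to 3927 CPM in complement NPSC. Genes of other testis cells were also counted: the Leydig cell hormone INSL3 averaged 798 CPM in baseline and 555 CPM in complement NPSC, and the endothelial receptor KDR averaged 233 and 204 CPM, so the cells were a mixture. In bulk RNA, fewer cells of a type and less RNA per cell cannot be told apart.

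IL1A lay on chromosome 3 from 45453545 to 45466239, on the minus strand, in the build of the files, whose name is not given in the sources used here. IL1R1 lay on the same chromosome and strand, from 54729098 to 54758580, within a run of receptor genes of the family: IL18RAP, IL1RL2 and IL18R1 lay before it by coordinate and IL1R2 after it. IL18 was at 44692095 to 44713420 on the minus strand of chromosome 9, and IL33 at 241453676 to 241630720 on the minus strand of chromosome 1. Chromosome 13 carried 3 of the genes, MYD88 (25181051 to 25185351, plus strand), IRAK2 (73509523 to 73515894, minus strand) and IL1RAP (137315798 to 137369721, plus strand). IRAK1 was on chromosome X, from 142283041 to 142290291 on the minus strand. No other gene of the files overlapped the span of any of the 8 genes. The values are counts over all exons of a gene, so no exon, intron or untranslated region is set apart.

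Per kilobase of exon, the kinase IRAK1 and the receptor IL1R1 stood highest among the 8 genes, and IL1A and IRAK2 lowest, in baseline NPSC. In baseline NPSC the level was 39.7 ± 3.50 CPM per kilobase (SD, n = 3) for IRAK1, 28.3 ± 6.76 for IL1R1 and 21.9 ± 3.01 for MYD88. IL18 followed at 15.0 ± 6.44 and IL33 at 14.9 ± 1.71. IL1RAP came next at 7.53 ± 1.19, IL1A at 6.14 ± 0.837 and IRAK2 at 6.11 ± 0.681. Of neighbours in this order, only IRAK1 and IL1R1, and IL33 and IL1RAP, did not overlap in their 3 values. In complement NPSC the order was IL1R1 (36.1 ± 12.8), IRAK1 (35.3 ± 11.6), MYD88 (16.9 ± 2.09), IL18 (16.2 ± 0.758), IL33 (10.3 ± 5.69), IL1A (9.75 ± 0.798), IRAK2 (8.49 ± 1.28) and IL1RAP (6.01 ± 0.710). There, the neighbours whose values did not overlap were IRAK1 and MYD88, and IRAK2 and IL1RAP. The gene model of IRAK2 is short, at 1486 bp of exon against 3255 bp for IRAK1, so its level per kilobase rests on the part of the gene that the files list.

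**Figure D1:**
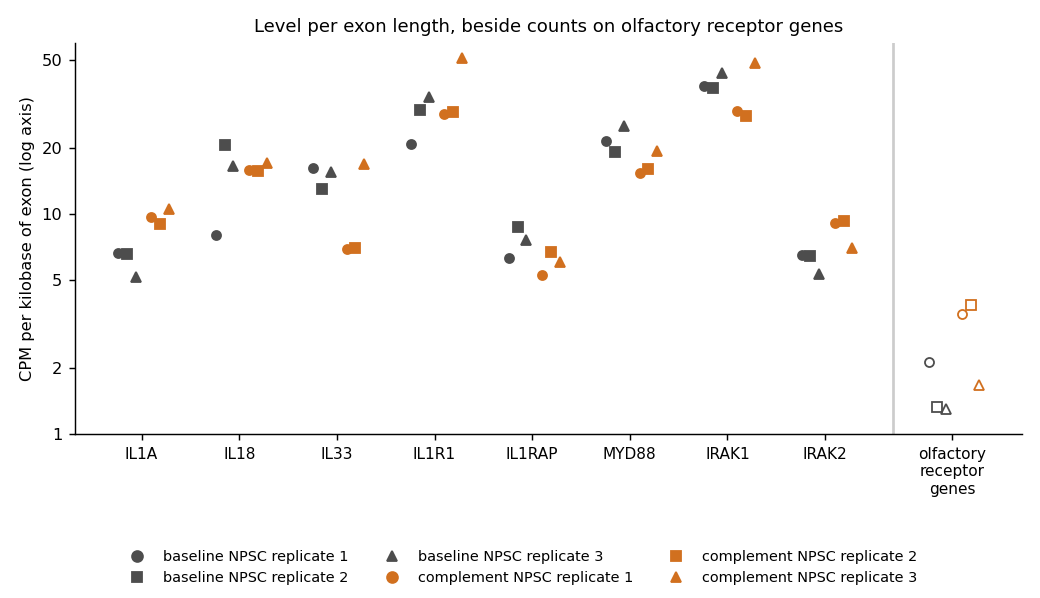
Level of the 8 IL-1 family genes in CPM per kilobase of exon (log axis), in baseline NPSC and complement NPSC, with a point for each library (shape marks the replicate), beside the density on olfactory receptor genes (open points). IRAK1 and IL1R1 stood highest in both groups, and IL1RAP, IL1A, IRAK2 and, in complement replicates 1 and 2, IL33 were nearest to the density on olfactory receptor genes.

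Of the ligands, IL1A is the alarm cytokine that binds IL1R1. It stood at 12.03, 11.9 and 9.36 CPM in baseline replicates 1, 2 and 3 and at 17.6, 16.2 and 19.1 CPM in complement replicates 1, 2 and 3. All 3 complement libraries were above all 3 baseline libraries, and the lowest complement value was 16.2 CPM against a highest baseline value of 12.03 CPM. The means were 11.1 ± 1.51 CPM (SD, n = 3) and 17.6 ± 1.44 CPM, with an LFC of 0.67 (SE 0.26, 95% confidence interval 0.12 to 1.22) and an adjusted p of 0.284 in edgeR (unadjusted p = 0.0194). The exact two-sided permutation test on log2 CPM gave p = 0.1, the smallest that 3 against 3 libraries allow. Of all tested genes, 15.2% had an unadjusted p under 0.05, and IL1A ranked 1192 of 17512 by p. The expected background came to 25.9% of its counts in baseline and 29.2% in complement NPSC. With the expected background subtracted, the means were 8.28 and 14.6 CPM, and the groups still did not overlap (LFC 0.82, edgeR adjusted p = 0.486).

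IL18 encodes the ligand that acts through IL18R1 and IL18RAP. Its levels were 9.13, 23.5 and 18.8 CPM in baseline and 18.03, 17.9 and 19.5 CPM in complement NPSC. The complement libraries lay close together inside the baseline range, in which replicate 1 was the low value. The means were 17.2 ± 7.34 CPM and 18.5 ± 0.865 CPM, and the LFC was 0.11 (SE 0.30, interval -0.54 to 0.76, edgeR adjusted p = 0.857). Without baseline replicate 1 the LFC was -0.21. IL18 was above IL1A per kilobase in every library, by the least in baseline replicate 1. The ratio of IL1A to IL18 per kilobase was 0.831 in baseline replicate 1, 0.320 and 0.313 in replicates 2 and 3, and 0.616, 0.572 and 0.620 in complement NPSC (exact permutation p = 0.4).

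IL33 is a nuclear alarm cytokine, known best from endothelial and other barrier cells, and its own receptor chain is IL1RL1. It stood at 57.6, 46.0 and 54.9 CPM in baseline NPSC and at 24.7, 25.05 and 59.9 CPM in complement NPSC. Complement replicates 1 and 2 were below every baseline library, while replicate 3 was above every baseline library. The means were 52.8 ± 6.07 CPM and 36.6 ± 20.2 CPM, with an LFC of -0.52 (SE 0.29, interval -1.13 to 0.09) and an edgeR adjusted p of 0.374. Without complement replicate 3 the LFC was -1.11 (edgeR adjusted p = 0.0382), past both thresholds, in a fit in which 5.76% of all tested genes passed them. In the complement libraries the expected background was 50.5% and 54.7% of the IL33 counts in replicates 1 and 2, and 9.96% in replicate 3. With the log2 density on olfactory receptor genes as a covariate, the LFC was -0.070 (edgeR adjusted p = 0.992). With the expected background subtracted, the IL33 means were 47.7 and 28.6 CPM, with an LFC of -0.70 (edgeR adjusted p = 0.559).

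The split of the complement libraries seen for IL33, with replicate 3 above and replicates 1 and 2 below every baseline library, was shared by 5.45% of all tested genes and, among the 8 family genes, by IRAK1. It was noted after the values were seen. Among tested cell type markers, 2 of 3 endothelial (PECAM1 and KDR) and 2 of 5 peritubular myoid (CNN1 and DES) ones shared it. So did 1 of 4 germ cell markers (DDX4). It was shared by 0 of 9 Sertoli cell, 0 of 6 macrophage and 0 of 3 Leydig cell markers. Nor was it shared by markers of epithelium (0 of 3) or of neutrophils and T cells (0 of 2). Of 16 tested genes of the signal relay 4 shared it (PELI1, RELA, MAP3K3 and UBE2V1). The endothelial markers are given here because that cell type is a known source of IL33. Of 6 endothelial markers 3 were matched, and their summed level was 367 to 556 CPM in baseline NPSC and 256 to 608 CPM in complement NPSC. PECAM1 stood at 144, 112 and 270.3 CPM in complement replicates 1, 2 and 3, and at 200.2, 147 and 253 CPM in baseline NPSC. KDR, a receptor for vascular growth factor, stood at 171, 131 and 311 CPM in complement NPSC and at 215, 206 and 279 CPM in baseline NPSC. None of the 3 markers at hand was at 0, and the part of endothelial cells in the IL33 values was not tested. TEK, a receptor for angiopoietins, was at 21.02, 14.1 and 24.2 CPM in baseline and 21.8, 13.4 and 26.9 CPM in complement NPSC.

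**Figure D2:**
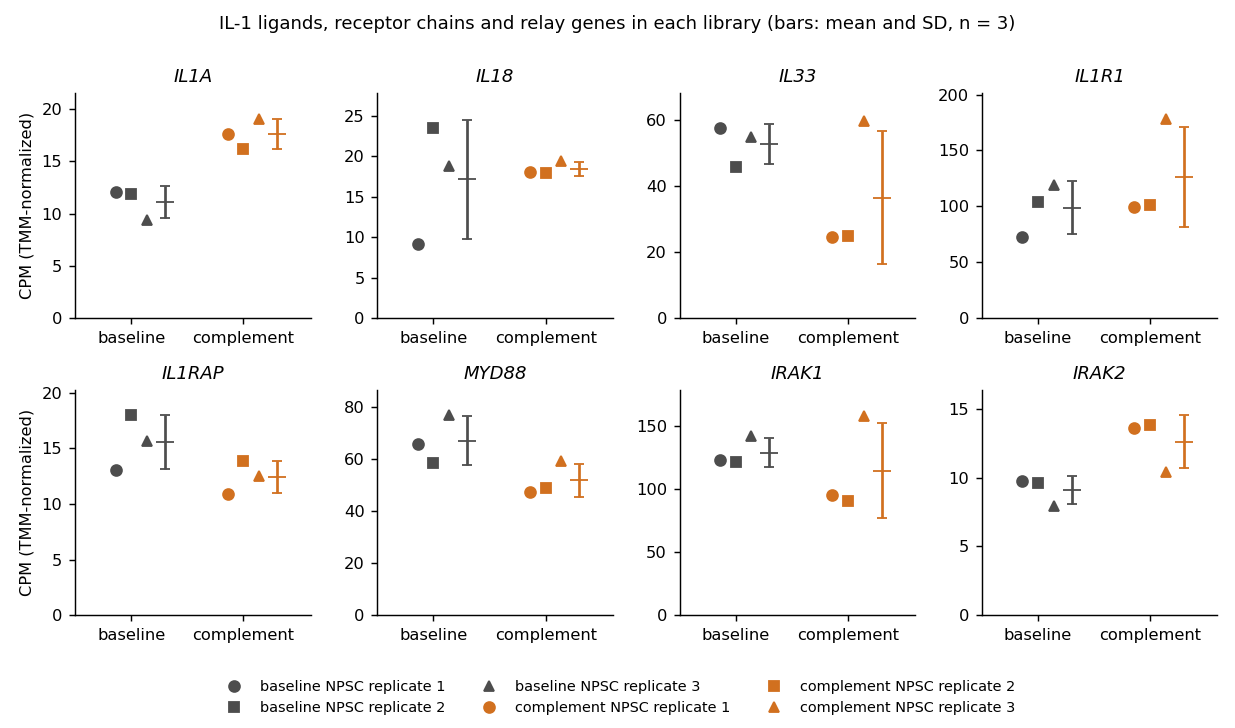
CPM of each of the 8 IL-1 family genes in the 3 baseline and 3 complement libraries, with a point for each library (shape marks the replicate) and the group mean with its SD (n = 3). On this TMM-normalized scale IL1A and IRAK2 were the genes whose groups did not overlap (by library total, IL1A and IL1R1), and complement replicate 3 stood apart from complement replicates 1 and 2 for IL33, IL1R1 and IRAK1.

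Of the receptor chains, IL1R1 binds IL1A and IL1RAP is the accessory chain that completes the receptor. IL1R1 stood at 72.9, 104 and 119 CPM in baseline NPSC and at 99.3, 101 and 178 CPM in complement NPSC. Complement replicates 1 and 2 lay within the baseline range and complement replicate 3 was the highest of the 6 libraries. The means were 98.7 ± 23.6 CPM and 126 ± 44.8 CPM, with an LFC of 0.35 (SE 0.26, interval -0.19 to 0.90, edgeR adjusted p = 0.467). Over all libraries, 6.56% of its counts were expected from background. With the density on olfactory receptor genes as a covariate the LFC was 0.94 with an edgeR adjusted p of 0.0292, short of an LFC of 1, where 0.36% of all tested genes had an adjusted p under 0.05. Scaled by the library total alone, IL1R1 stood at 74.0, 93.9 and 108 CPM in baseline and 114, 116 and 160 CPM in complement NPSC, and the groups did not overlap. Without complement replicate 3 the LFC was -0.0086, so the value of IL1R1 depended on these choices.

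IL1RAP stood at 13.05, 18.0 and 15.7 CPM in baseline NPSC and at 10.9, 13.8 and 12.5 CPM in complement NPSC. The groups overlapped through baseline replicate 1, which was below complement replicate 2. The means were 15.6 ± 2.46 CPM and 12.4 ± 1.47 CPM, with an LFC of -0.33 (SE 0.26, interval -0.88 to 0.23, edgeR adjusted p = 0.507). The expected background was 21.1% of its counts in baseline and 48.0% in complement NPSC, and it reached 66.5% in complement replicate 1, the highest share among the 8 genes. With that background subtracted, IL1RAP stood at 9.47, 14.5 and 12.7 CPM in baseline and at 4.67, 8.30 and 8.98 CPM in complement NPSC, and the groups no longer overlapped (LFC -0.73, edgeR adjusted p = 0.524). With the density on olfactory receptor genes as a covariate, the LFC of IL1RAP was -0.21 (edgeR adjusted p = 0.965).

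Per kilobase, IL1R1 was thus higher than its accessory chain in every library. The ratio of IL1R1 to IL1RAP per kilobase was 3.31, 3.43 and 4.50 in baseline NPSC, against 5.39, 4.33 and 8.42 in complement NPSC. Complement replicate 2 lay below baseline replicate 3, and the exact two-sided permutation test gave p = 0.2.

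Of the relay genes, MYD88 encodes the adaptor that docks on the joined receptors. It stood at 65.7, 58.5 and 76.8 CPM in baseline NPSC and at 47.2, 48.9 and 59.1 CPM in complement NPSC. The groups overlapped by a narrow margin, with complement replicate 3 just above baseline replicate 2. The means were 67.0 ± 9.22 CPM and 51.7 ± 6.42 CPM, with an LFC of -0.37 (SE 0.19, interval -0.78 to 0.03, edgeR adjusted p = 0.350). Over 15 alternatives its LFC lay between -0.51 and -0.21.

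IRAK1, the kinase that joins MYD88 early and is spent as the signal passes, stood at 124, 122 and 142 CPM in baseline NPSC and at 95.7, 90.7 and 158 CPM in complement NPSC. Complement replicates 1 and 2 were below every baseline library and complement replicate 3 above every one. The means were 129 ± 11.4 CPM and 115 ± 37.7 CPM, with an LFC of -0.17 (SE 0.23, interval -0.66 to 0.33, edgeR adjusted p = 0.693). Without complement replicate 3 the LFC was -0.50 (edgeR adjusted p = 0.0613). With the density on olfactory receptor genes as a covariate the LFC of IRAK1 was 0.22 (edgeR adjusted p = 0.925). With the expected background subtracted it was -0.0061 (edgeR adjusted p = 0.989).

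IRAK2, the kinase that sustains the later signal, stood at 9.71, 9.60 and 7.91 CPM in baseline NPSC and at 13.6, 13.8 and 10.4 CPM in complement NPSC. On this scale every complement library was above every baseline library, with complement replicate 3 nearest to the baseline. Scaled by the library total alone, IRAK2 stood at 9.86, 8.66 and 7.17 CPM in baseline and 15.5, 15.9 and 9.37 CPM in complement NPSC, where complement replicate 3 was below baseline replicate 1. The means were 9.07 ± 1.01 CPM and 12.6 ± 1.90 CPM, with an LFC of 0.47 (SE 0.28, interval -0.13 to 1.08, edgeR adjusted p = 0.403, exact permutation p = 0.1). The expected background was 26.0% of its counts in baseline and 34.5% in complement NPSC, and with it subtracted the means were 6.72 and 10.1 CPM (LFC 0.58, edgeR adjusted p = 0.569). With the density on olfactory receptor genes as a covariate, the LFC of IRAK2 was 0.21 (edgeR adjusted p = 0.964). The ratio of IRAK1 to IRAK2 per kilobase was 5.81, 5.79 and 8.22 in baseline and 3.22, 2.99 and 6.94 in complement NPSC, so complement replicate 3 lay within the baseline range (exact permutation p = 0.3).

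**Figure D3:**
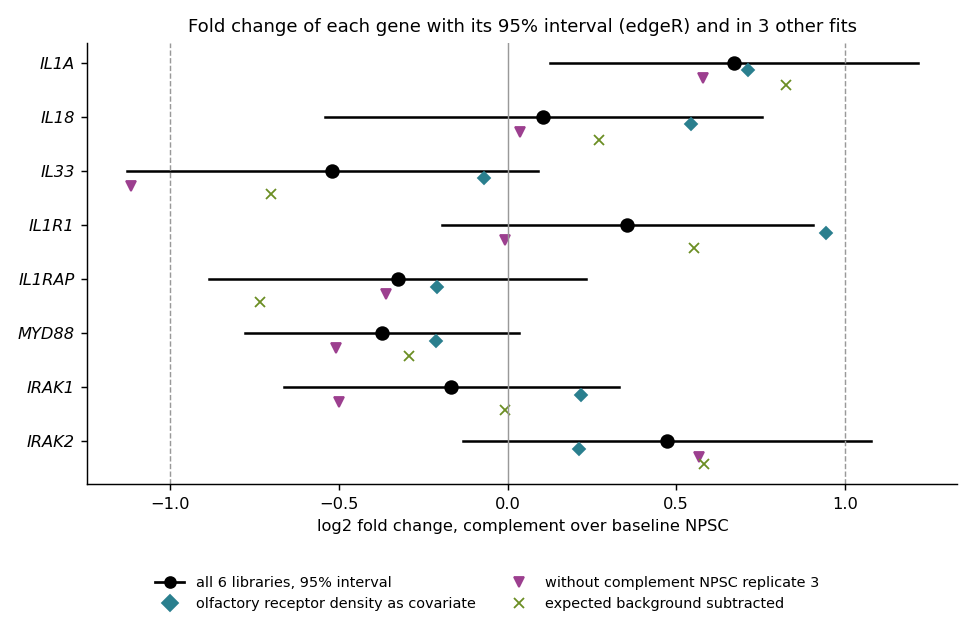
LFC of complement against baseline NPSC for the 8 IL-1 family genes from edgeR, with 95% confidence intervals and dashed lines at the fold threshold, beside the LFC without complement replicate 3, with the expected background subtracted and with the density on olfactory receptor genes as a covariate. IL1A had an interval above 0 (0.12 to 1.22), and the IL33 and IL1R1 values moved by the most between the settings.

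Across the 8 genes, 4 LFCs were positive and 4 negative, with a median of -0.03 against 0.02 over all tested genes. By edgeR 0 of 8 passed both thresholds, where 0.103% of all tested genes did, and the Wald test of DESeq2 also called 0, against 0.358% of all genes to which it gave an adjusted p. At an unadjusted p under 0.05, 1 of 8 was found by edgeR (IL1A), where 15.2% of all tested genes were. The groups did not overlap for 2 of 8 genes, or 25.0%, both higher in complement NPSC. Over all tested genes the groups did not overlap for 17.1%, and complement was the higher group for 8.95%. Scaled by the library total alone the count was also 2, with IL1R1 in place of IRAK2, against 14.3% of all tested genes. With the expected background subtracted the count was 4 of 8 (IL1A, IRAK2 and IL1R1 higher, IL1RAP lower), against 15.8% of all genes tested that way. Without complement replicate 3 it was 5 of 8 (IL1A and IRAK2 higher, IL33, IRAK1 and MYD88 lower), against 58.6% of all genes tested then.

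The other genes of the pathway were described from lists by role. Of 8 other ligands (IL1B and the IL-36 group among them), 0 were matched by name. Of 8 other receptors and binding proteins, 7 were matched and 5 tested. Of these, 0 passed both thresholds in edgeR or DESeq2 (0.103% and 0.358% over all genes). In 3 of them (IL18R1, IL18RAP and IL1RAPL2, the last named after its values were seen) the unadjusted p was under 0.05, with complement NPSC the higher group, where 15.2% of all tested genes had such a p. For IL1RAPL2 the expected background was 320.3% of the counts, so its level could not be told from background. IL18R1, the binding chain for IL18, stood at 46.4, 42.6 and 54.9 CPM in baseline and at 62.3, 47.5 and 102 CPM in complement NPSC, where replicate 2 lay inside the baseline range (LFC 0.56, edgeR adjusted p = 0.312). The accessory chain IL18RAP had an LFC of 1.58 (SE 0.41, edgeR adjusted p = 0.261), with an expected background of 109% of its counts in baseline, so its level there could not be told from background, and 67.7% in complement NPSC, and it passed both thresholds without complement replicate 3 (LFC 1.85), where 5.76% of all tested genes did. For the decoy receptor IL1R2 the expected background was 138% of the counts, so its level could not be told from background. The inhibitory receptor SIGIRR had an LFC of 0.20.

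Of 20 signal relay genes, 16 were matched and tested. None passed both thresholds in edgeR or DESeq2 (0.103% and 0.358% over all genes). An unadjusted edgeR p under 0.05 was found for 1 of the 16, where 15.2% of all tested genes had such a p. This was IRAK4, the kinase that acts before IRAK1, at 19.8 ± 4.20 CPM in baseline and 12.6 ± 3.16 CPM in complement NPSC (LFC -0.64, edgeR adjusted p = 0.309). The expected background was 20.1% of the IRAK4 counts in baseline and 57.1% in complement NPSC. The most abundant genes per kilobase were the scaffold SQSTM1 (LFC -0.37), the ubiquitin-conjugating factor UBE2V1 (-0.19) and the kinase adaptor TAB2 (-0.37), and the median LFC of the 16 was -0.13.

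Of 22 genes for processing and release of the ligands, 12 were matched and 10 tested, with a median LFC of 0.09. Of these, 0 were past both thresholds in edgeR or DESeq2 (0.103% and 0.358% over all genes). The calpain subunits CAPN1 and CAPNS1, of the protease that trims IL1A, had LFCs of 0.0032 and -0.26, and the pore protein GSDMD had -0.20. P2RX7, the ATP-gated channel, was the 1 gene of the 10 with an unadjusted edgeR p under 0.05, where 15.2% of all tested genes had such a p. Its LFC was 0.89 (edgeR adjusted p = 0.272), with an expected background of 66.2% of its counts. It passed both thresholds without complement replicate 3 (LFC 1.19), where 5.76% of all tested genes did. For CASP1 and NLRP3, of the inflammasome that matures IL18, the expected background was 104% and 98.2% of the counts, so their levels could not be told from background.

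IL-1 response genes stood higher in complement NPSC as a list, at a median LFC of 1.05 over the 18 tested of 30 listed, against 0.02 over all tested genes. Of the 30, 20 were matched by name. CCL20, LIF and SELE are among those that were not, IL6 was matched and did not pass the filter, nor did CSF3, which the name table paired with another identifier than the study's, so the counts and the median leave these genes out. The groups did not overlap for 15 of the 18, all higher, where complement was the higher group without overlap for 8.95% of all tested genes. In 14 the unadjusted p was under 0.05 (15.2% of all tested genes), among them the collagenase MMP13, whose groups overlapped. Both thresholds were passed by 2 in edgeR (0.103% of all tested genes) and by 7 in DESeq2 (0.358%). PTGS2, the inducible prostaglandin synthase, rose from 42.1 ± 15.0 CPM to 486 ± 220.5 CPM (LFC 3.53, SE 0.37, edgeR adjusted p = 0.000677). CXCL2, a neutrophil chemokine, rose from 48.6 ± 14.5 CPM to 168 ± 59.6 CPM (LFC 1.79, SE 0.28, edgeR adjusted p = 0.0180). The study had picked many of these genes on the same libraries, so the count is not independent evidence of a direction, and these genes also answer to other signals and to serum.

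Among response genes that did not pass both thresholds in edgeR, of which DESeq2 called IER3, NFKBIA, NFKBIZ, TNFAIP3 and VCAM1, the chemokine CCL2 stood at 330.4 ± 25.6 CPM in baseline and 639 ± 124 CPM in complement NPSC (LFC 0.95). The early response gene IER3 stood at 247 ± 47.1 CPM and 698 ± 263 CPM (edgeR adjusted p = 0.0891), and the chemokine CXCL8 had an LFC of 0.98. The NF-kB inhibitors NFKBIA, NFKBIZ and TNFAIP3 had LFCs of 1.33, 1.36 and 1.12, and the NF-kB subunit NFKB1 had 1.28. The adhesion molecules VCAM1 and ICAM1 had 1.25 and 0.78. IL6, the cytokine most often used to read IL-1 action, had 0 counts in all 6 libraries and was not tested; 0 counts in these files do not give a level, since the Leydig cell enzyme CYP11A1 was at 0 counts as well.

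**Figure D4:**
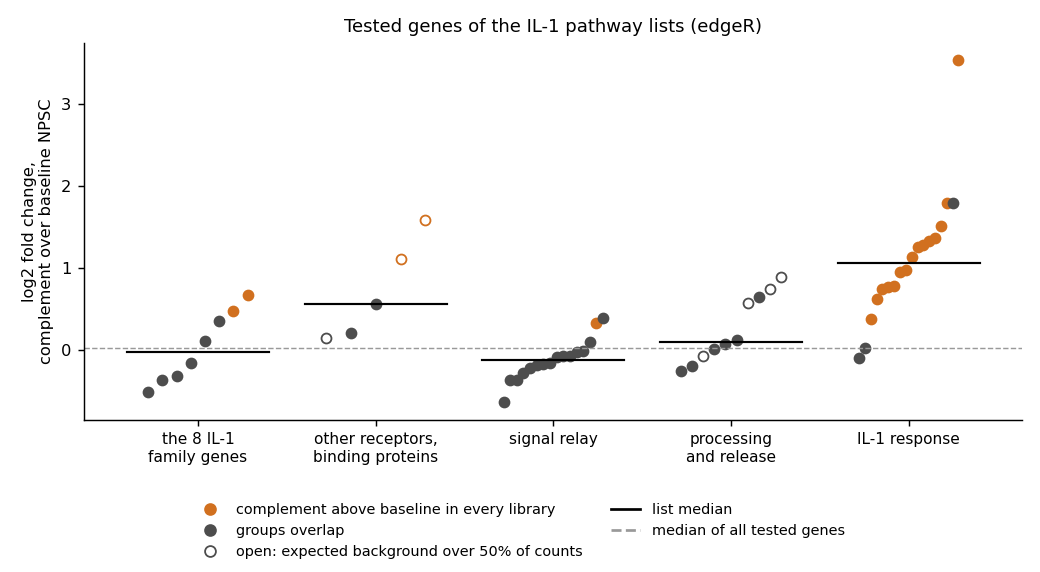
LFC of complement against baseline NPSC from edgeR for each tested gene of the 8 IL-1 family genes and of the pathway lists, with a point for each gene (orange where every complement library was above every baseline library, open where over 50% of the counts were expected from background), a line at each list's median and a dashed line at that of all tested genes. The medians were -0.03 for the 8 genes, 0.56 for the other receptors, -0.13 for signal relay, 0.09 for processing and release and 1.05 for the response genes.

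The genes whose levels were most like those of IL1A over the 6 libraries, by Pearson's r of log2 CPM among tested genes with a mean of at least 5 CPM, were ENSSSCG00000027243 (0.994), PLK3 (0.992), LRRC9 (0.987), ITPKC (0.985) and VEGFA (0.985). The 6 points are 3 libraries from each of the 2 groups, which also differ in depth, so these values are a description. All 5 were higher in every complement library than in any baseline library, as were 8.95% of all tested genes. They were picked for their likeness to IL1A, which has the same separation, so this follows from the choice and is no further result. VEGFA, a vascular growth factor, rose from 46.0 ± 7.52 CPM to 109.5 ± 10.7 CPM (LFC 1.25, edgeR adjusted p = 0.0206), and PLK3, a stress-responsive kinase, had an LFC of 0.62 (edgeR adjusted p = 0.267). Within the family, IRAK2 was the most like IL1A (0.791) and MYD88 the least (-0.793), with IL1R1 at 0.379, IL18 at 0.141, IRAK1 at -0.27, IL33 at -0.45 and IL1RAP at -0.70.

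Markers of the cell types that could carry these genes were read beside them. Of 9 macrophage markers, 6 were matched, with a summed level of 86.4 to 127 CPM in baseline and 66.0 to 107 CPM in complement NPSC, and 95.6% of the counts of the leukocyte antigen PTPRC were expected from background. Of these markers LYZ, which encodes lysozyme, was lower in every complement library, at 8.93 ± 5.21 CPM in baseline and 1.78 ± 1.34 CPM in complement NPSC (LFC -2.28, adjusted p = 0.261 in edgeR and 0.0235 in DESeq2), where 198% of its complement counts were expected from background. CSF1R, CD14 and PTPRC had LFCs of -0.75, -0.33 and -0.15, and CD68 and MRC1 had 0.11 and 0.31. Of 6 epithelial markers, 4 were matched, with a summed level of 18.1 to 22.5 CPM in baseline and 15.6 to 32.3 CPM in complement NPSC; CDH1 was at 0 counts in all libraries and 94.03% of EPCAM counts were expected from background. Of 6 neutrophil and T cell markers, 3 were matched, with a summed level of 13.2 to 14.4 CPM in baseline and 15.8 to 25.6 CPM in complement NPSC, higher in every complement library as IL1A was. Most of that sum was CD2, with 68.9% of its counts expected from background (80.9% in complement NPSC), S100A8 had 33.8%, and the neutrophil receptor CSF3R was at 0 counts in all libraries. Leydig cell markers (4 of 6 matched) summed to 936 to 1139 CPM in baseline and 713 to 759.6 CPM in complement NPSC, peritubular myoid markers (6 of 6) to 2503 to 3763 and 1941 to 3608 CPM, and germ cell markers (4 of 6) to 234 to 374 and 172 to 321 CPM. Of 9 tested Sertoli cell markers, 5 were lower in every complement library and 1 was higher, where 8.14% of all tested genes were lower and 8.95% higher without overlap. Of these 9 markers, 7 had an unadjusted edgeR p under 0.05 (5 lower and 2 higher), against 15.2% of all tested genes, 0 passed both thresholds, and the median LFC was -0.63. The part of these cell types in the IL-1 family values was not tested.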

How the data were processed

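The authors deposited raw counts per gene for each of 6 libraries, with gene coordinates and exon length and no normalization. Per the submitters' processing notes, Trimmomatic 0.36, STAR 2.5.2b and featureCounts of Subread 1.5.2 were used. The genome build and strand setting are not given in the sources used here, so reads of overlapping or antisense transcripts that are not listed could not be set apart. Symbols were paired with 11804 of 25149 identifiers by RefSeq (Sscrofa11.1) and gene name tables, whose coordinates were not used.

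Counts were analysed in edgeR 4.0.16 (R 4.3.3): filterByExpr, TMM, glmQLFit and the quasi-likelihood F-test of complement against baseline NPSC over all 6 libraries, with Benjamini-Hochberg adjustment over 17512 genes. Called genes had an adjusted p under 0.05 and an LFC beyond 1 in size. CPM used the TMM-normalized library size, and log2 CPM a prior count of 2. Exact permutation tests were two-sided and compared the group means of log2 CPM, or of log2 ratios, without a prior count. The expected background of a gene was the counts per exon base on 48 olfactory receptor genes (45945 bp of exon), multiplied by the length of the gene. Intervals are 95% confidence intervals. Procedures were tested on simulated data, and plots were drawn with matplotlib 3.10.9.

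The genes named are the IL-1 family genes, the 3 genes of each pathway list with the highest CPM per kilobase, list genes past the thresholds or with an unadjusted p under 0.01, the 5 genes most like IL1A, and genes named otherwise only after their values were seen (IL1R2, IL1RAPL2, IRAK4, P2RX7, CASP1, NLRP3, MMP13, PELI1, RELA, MAP3K3, IL6, CSF3, CCL20, LIF and SELE, with the markers). The genes and lists were chosen with earlier results of these data known. The alternatives were DESeq2 size factors, upper-quartile factors, the DESeq2 1.42.0 Wald test (the kind of test used by the study), no filter, a minimum of 10 counts per library, a replicate block, an LFC threshold of 0.7, background subtraction, the background covariate, CPM by library total and leaving out each library.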

Additional observations from a re-analysis of the deposited data

How the results depend on the processing

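The signs and calls of the 8 LFCs held in 116 of the values recomputed under 15 alternatives. The exceptions were IL18 without baseline replicate 1 (-0.21, and -0.21 to 0.38 with any library left out), IL1R1 without complement replicate 3 (-0.0086, and -0.0086 to 0.50 with any library left out), IRAK1 with the background covariate (0.22), and IL33 without complement replicate 3 (-1.11, past both thresholds). The number of the 8 genes past both thresholds, 0 in the main analysis, was 0 to 1 with 1 library left out (IL33 without complement replicate 3). The number whose groups did not overlap, 2 in the main analysis, was 4 with the background subtracted, 2 with CPM by library total (IL1A and IL1R1, with IRAK2 overlapping) and 2 to 5 with 1 library left out (5 without complement replicate 3, where the groups did not overlap for 58.6% of all tested genes). The number of other pathway genes past both thresholds, 2 in the main analysis, was 7 by DESeq2, 7 with the background subtracted, 10 with the background covariate and 2 to 7 with 1 library left out (7 without complement replicate 3 and 5 without baseline replicate 1). Over all genes these fits called 54, 31, 58, 1063 and 298, against 18 in the main analysis; the cause was not tested. The LFC of IL1A lay between 0.54 and 0.82 over all alternatives, with an adjusted p of 0.0347 to 0.794. Upper-quartile factors moved the median LFC of all genes by 0.11. IL1A, IL18, IL1RAP and IRAK2 had the fewest counts of the 8 genes in every library. Counting error was not separated from the spread between libraries.

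With the replicate number as a replicate block, 10 other pathway genes passed both thresholds in edgeR and 5 in DESeq2, in fits that called 728 and 121 genes over all. IL1A had an LFC of 0.68 (adjusted p = 0.0347) and IL33 one of -0.62 (adjusted p = 0.00580) in the edgeR fit with the block, and 0 of the 8 genes passed both thresholds; in the DESeq2 fit with the block the adjusted p was 0.205 and 0.105. Deviations of same-numbered libraries from their group means correlated at 0.456, 0.0302 and 0.482 over genes for replicates 1, 2 and 3. Replicates 1 and 3 correlated best with their own number and replicate 2 did not. This does not decide whether the numbers pair the libraries, so the block is given as an alternative only.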
